A study of Mus musculus with 9 samples.

Results

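The genes described here are 41 genes of the lysosome, measured in the whole lungs of 9 mice among 16843 genes. They were chosen by symbol: every non-control probe whose RefSeq transcript maps to 1 of the 41 symbols was taken, which gave 63 of the 56605 distinct probes on the array. All 41 were well above background on all 9 arrays, so no member was lost to the filter on dim probes. They fall into 6 membrane proteins, 9 cathepsins and other proteases, 11 glycosidases and sulfatases, 5 lipid-handling proteins, progranulin, 7 subunits of the proton pump and 2 transcription factors.

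The lysosome is the acidic compartment in which cells break down proteins, glycans and lipids taken up from outside or delivered by autophagy. A proton pump in its membrane keeps it acidic, hydrolases in its lumen cut the cargo, and transcription factors of the TFEB and TFE3 family drive many of its genes together. In the lung, alveolar macrophages clear surfactant and inhaled particles through lysosomes, and the lamellar bodies in which alveolar type 2 cells store surfactant are lysosome-related organelles.

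All mice carried floxed alleles of the gene for TRF1 (Terf1), a protein that protects telomeres, and all received tamoxifen, a drug that activates inducible cre recombinases, with weekly doses of 250 mg/kg begun at the age of 8 weeks. The control group held 3 TRF1flox/flox littermates that lacked cre and were 11 months old, with 9 months of treatment behind them. Of the SPC-cre TRF1flox/flox mice, 3 were 5 months old and had been treated for 3 months (called 3-month cre), and 3 were 11 months old and had been treated for 9 months (called 9-month cre). SPC is surfactant protein C, a product of alveolar type 2 cells, while the RNA came from all cells of the lung. No control of the age of the 3-month group was included, so in that comparison cre, age and length of treatment cannot be told apart. The labels call the 3 lungs of a group biological replicates.

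Levels are log2 intensities relative to the 75th percentile of each array, and they compare 1 gene between lungs, not 1 gene with another. A member is said to have risen or fallen, or to be called, at a Benjamini-Hochberg adjusted p under 0.05 over all 16843 genes in limma. A change compares 3 with 3 lungs. Its SE is the moderated SE of limma, from a spread pooled over all 3 groups. A gene therefore has the same SE in each comparison, and 1 variable group widens all of them. The control lungs and replicate 1 of 3-month cre lay on slide 1, with 64.4% to 66.5% of spots well above background, and the other 5 arrays lay on slide 2, with 69.4% to 73.7%. Xist and Y-linked probes showed 3 male control lungs and 2 female lungs in each cre group. Terf1 in whole lung was at -0.37, -0.05 and 0.20 in controls, -0.58, -0.68 and -0.62 in 3-month cre and -0.41, -0.97 and -0.39 in 9-month cre, and it was not called in either cre group (adjusted p = 0.190 and 0.131). Every cre lung was below every control lung for Terf1. In whole-lung RNA, a change in the number of cells of a type and a change in RNA per cell cannot be told apart.

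Against controls, 4 proteases and 2 glycosidases rose in 9-month cre lungs. In 3-month cre lungs more members had higher means, the proton pump included, but none passed the test. In 9-month cre 6 of the 41 members rose and 0 fell. That is 14.6% of members, against 3.65% of all genes called higher and 2.81% called lower. The controls were all male and on slide 1 and the 9-month cre lungs all on slide 2, and the 6 calls were lost with slide as a fixed term or with sex as a covariate (0 members and 0 of all genes called in each). Leaving out 1 array at a time gave 1 to 10 calls, where 91 to 980 of all genes were called higher. The median log2 fold change over the members was 0.16, and it was 0.02 over all genes tested. In 3-month cre 0 members were called in limma, where 0.368% of all genes were called higher and 0.0831% lower. At an unadjusted p under 0.05, 18 members were higher and 2 lower in 3-month cre, against 1960 higher and 1195 lower of all 16843 genes. Of the 41 members 38 had a positive change at 3 months, with a median of 0.32 against 0.05 over all genes, and 27 had a positive change at 9 months. Of all 16843 genes 9697 had a positive change at 3 months and 8894 at 9 months. Both comparisons use the same control lungs.

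**Figure D1:**
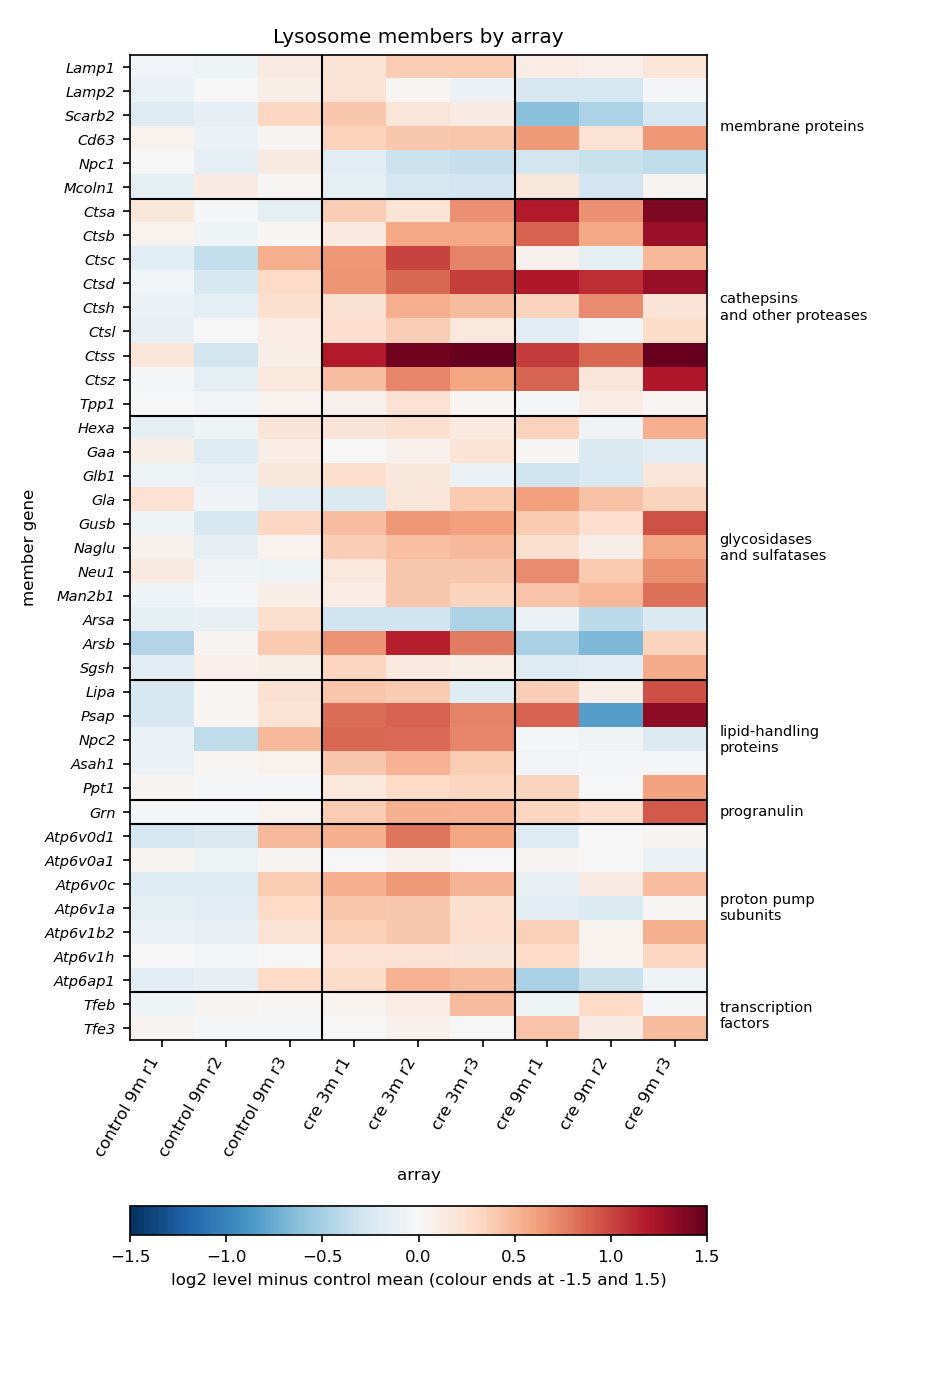
Log2 level of each of the 41 members (vertical axis, grouped by role) on each of the 9 arrays (horizontal axis), minus the mean of the 3 control lungs, with colour ending at -1.5 and 1.5. Ctsa and Ctsb are darkest in replicate 3 of 9-month cre, and the proton pump subunits, Atp6v0a1 apart, are red in the 3-month cre lungs and mostly paler or blue in the 9-month cre lungs.

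Single lungs differed within each group. Replicate 3 of 9-month cre held the highest level of 18 members, and replicate 2 of that group held the highest level of 1. The lowest level of 15 members was in control replicate 2. Control replicate 3 lay above the mean of the controls for 36 of the 41 members, and control replicates 1 and 2 for 13 and 8. In 3-month cre 33 to 38 members lay above the control mean in each lung, and in 9-month cre 23 to 31. Group means were highest in 3-month cre for 24 members, in 9-month cre for 14 and in controls for 3 (Npc1, Mcoln1 and Arsa).

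TFEB and TFE3 bind an E-box, and the promoters of the members were read for it because many lysosomal genes are known targets of these factors. RefSeq windows on GRCm38.p6, from 250 bases before to 50 bases after a transcription start, were given for 35 of the 41 members. The letters TCACGTG, on either strand, stood in at least 1 window of 12 of those 35 members, or 34.3%, and in 4.29% of 27025 genes of the same table. The shorter core CACGTG, which every such match contains, stood in 37.1% of the members and 8.09% of the genes. A match is a description of the letters and was not tested as a binding site. The runs shown are those of Ctsd and Ctsa, which rose in 9-month cre, of Lamp1, which has the most matches with 4, of Gla and Mcoln1, which have 2 each as Ctsa and Ctsd do, and of the pump subunit Atp6v1a. Of the 2 matches of Ctsa, 1 does not lie wholly before a start and is not shown. Each run is written 5′ to 3′ on the strand of the gene and ends before its start, and capitals mark the match.
Ctsd, chr7:142387899-142387946, minus strand: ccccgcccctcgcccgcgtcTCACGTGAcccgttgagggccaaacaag
Ctsd, chr7:142388046-142388077, minus strand: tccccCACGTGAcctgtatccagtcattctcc
Ctsa, chr2:164833740-164833772, plus strand: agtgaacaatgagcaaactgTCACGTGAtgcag
Lamp1, chr8:13159079-13159160, plus strand: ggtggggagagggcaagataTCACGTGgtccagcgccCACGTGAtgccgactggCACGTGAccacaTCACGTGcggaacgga
Mcoln1, chr8:3500427-3500500, plus strand: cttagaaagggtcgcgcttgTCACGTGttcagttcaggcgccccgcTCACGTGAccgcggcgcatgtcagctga
Gla, chrX:134601173-134601253, minus strand: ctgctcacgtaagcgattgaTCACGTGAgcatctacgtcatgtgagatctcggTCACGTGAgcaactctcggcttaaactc
Atp6v1a, chr16:44139364-44139411, minus strand: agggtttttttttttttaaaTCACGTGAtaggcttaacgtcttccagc

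The 12 members with the letters did not share 1 direction. In 9-month cre against control 6 of the 12 had a positive change, with a median of 0.02 and a range of -0.23 to 1.21. Among the 23 members whose windows lack the letters the median was 0.28 and 17 changes were positive. At 3 months the medians were 0.26 with the letters and 0.32 without. Of the 6 members called at 9 months, Ctsa and Ctsd carry the letters, 3 of the others have windows without them and Ctsb has no window in the table.

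Cathepsins made up 4 of the 6 calls. All 9 proteases had a positive change in 9-month cre against control, with a median of 0.75, and 4 of them rose. Ctsd, the aspartic protease cathepsin D, was at 4.73, 4.52 and 5.05 in controls, 5.43, 5.63 and 5.81 in 3-month cre and 5.98, 5.88 and 6.08 in 9-month cre. No cre lung overlapped the controls, and the 9-month lungs lay closest together. The change was 1.21 ± 0.16, a 2.31-fold level, in 9-month cre (adjusted p = 0.0119), against 0.85 ± 0.16 in 3-month cre (adjusted p = 0.0728). The difference between the cre groups was 0.35 ± 0.16 and did not pass the test (adjusted p = 0.185).

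Ctss, cathepsin S, a cysteine protease of antigen-presenting cells, was at 5.38, 4.92 and 5.29 in controls, 6.39, 6.64 and 6.74 in 3-month cre and 6.24, 6.05 and 6.91 in 9-month cre. Every cre lung was above every control, and the highest single value was in replicate 3 of 9-month cre. Ctss rose by 1.21 ± 0.23 at 9 months (adjusted p = 0.0267). Its change at 3 months was larger, 1.39 ± 0.23, but missed the threshold (adjusted p = 0.0535). It passed at 3 months with scaling to the array median (adjusted p = 0.0401), where only the 3-month cre and control lungs were fitted (0.0213), with slide as a random block (0.0320), and without replicate 2 (0.0453) or replicate 3 (0.0204) of 9-month cre. It did not pass with slide as a fixed term, sex as a covariate, a replicate block or quantile normalization. Nor did it pass without any single control or 3-month cre lung. The 3-month change of Ctss was the largest of any member at that time, and lay at the 98.8th percentile of all genes by signed change.

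Ctsa, a carboxypeptidase that also protects β-galactosidase and neuraminidase 1 in the lysosome, was at 4.33, 4.15 and 4.02 in controls, 4.54, 4.38 and 4.86 in 3-month cre and 5.35, 4.86 and 5.57 in 9-month cre. It rose by 1.09 ± 0.20 at 9 months (adjusted p = 0.0252), while the 3-month change was 0.42 ± 0.20 (adjusted p = 0.301). Replicate 3 of 3-month cre and replicate 2 of 9-month cre met at 4.86. The annotated span of Ctsa overlaps Neurl2 and Pltp, and the place of the probe in the transcript was not used here. Ctsb, the cysteine protease cathepsin B, was at 5.57, 5.46 and 5.54 in controls, 5.67, 6.10 and 6.10 in 3-month cre and 6.40, 6.11 and 6.82 in 9-month cre. The 3 groups did not overlap one another, and the controls spread least. Ctsb rose by 0.92 ± 0.19 at 9 months (adjusted p = 0.0341), with a 3-month change of 0.43 ± 0.19 (adjusted p = 0.274).

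Among the 5 proteases that were not called, Ctsz, a carboxypeptidase, came closest at 9 months with 0.75 ± 0.24 (adjusted p = 0.0924), and its replicate 2 lay lowest of the 9-month cre lungs at 3.75. Without that lung its change was called, at 1.04 (adjusted p = 0.0134). Ctsc, which activates the serine proteases of granulocytes and lymphocytes, followed another order. It was at 2.90, 2.69 and 3.61 in controls, 3.72, 4.08 and 3.81 in 3-month cre and 3.13, 2.94 and 3.56 in 9-month cre. Only the 3-month lungs stood above the controls, by 0.80 ± 0.26 (adjusted p = 0.164), and the 9-month change was 0.14 ± 0.26. Ctsh, an aminopeptidase that takes part in processing surfactant protein B, had a change of 0.42 ± 0.17 in both cre groups, with overlap in each. Its 2 other probes, in a separate fit over all 37647 probes, gave 0.02 and -0.43 at 9 months and 1.17 and 0.51 at 3 months, none of them called. Ctsl, a further cysteine protease, and Tpp1, a tripeptidyl peptidase, changed by 0.02 and 0.04 at 9 months.

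**Figure D2:**
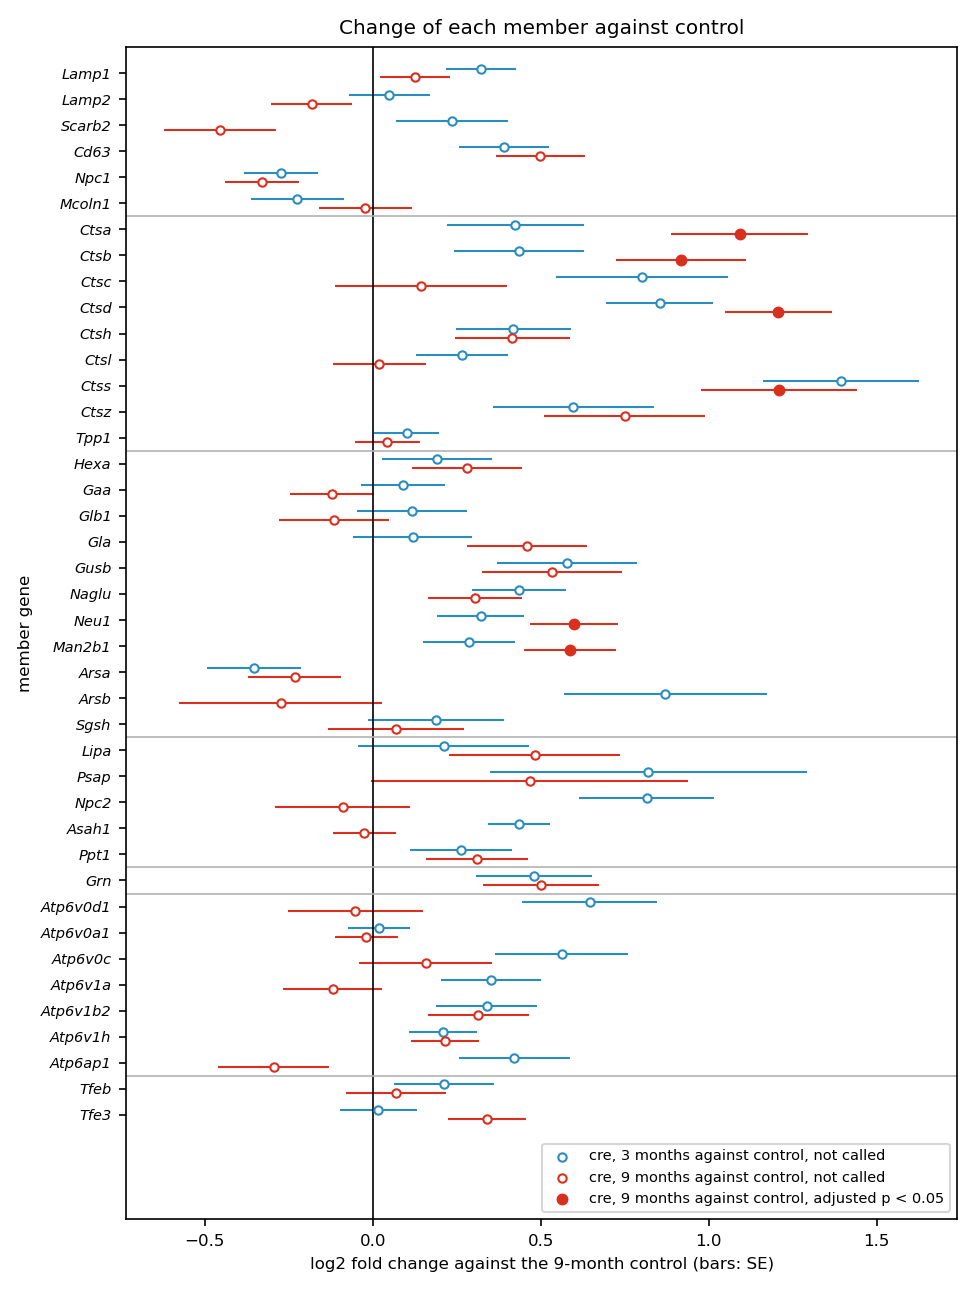
Log2 fold change of each member (vertical axis, grouped by role) against the 9-month controls, with SE bars, for 3-month cre (blue) and 9-month cre (red), where filled points passed an adjusted p under 0.05. The 6 filled points, Ctsa, Ctsb, Ctsd, Ctss, Neu1 and Man2b1, are all at 9 months and between 0.59 and 1.21.

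Of the 11 glycosidases and sulfatases 2 rose in 9-month cre, both enzymes that trim sugars from glycoproteins. Neu1, the lysosomal sialidase, was at 2.77, 2.59 and 2.57 in controls, 2.80, 3.05 and 3.04 in 3-month cre and 3.35, 3.04 and 3.34 in 9-month cre. It rose by 0.60 ± 0.13 at 9 months (adjusted p = 0.0359). Replicate 2 of 9-month cre lay within the 3-month lungs, and no cre lung reached down to the controls. Man2b1, the lysosomal α-mannosidase, was at 3.19, 3.24 and 3.35 in controls, 3.38, 3.67 and 3.60 in 3-month cre and 3.69, 3.76 and 4.09 in 9-month cre. It rose by 0.59 ± 0.14 (adjusted p = 0.0435), and its groups were ordered without overlap. The 3-month changes of Neu1 and Man2b1 were 0.32 and 0.29 and were not called.

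The other 9 enzymes of glycans and sulfates were not called against control at either time. At 9 months their changes ran from -0.27 for Arsb to 0.53 for Gusb, the β-glucuronidase. Gla, α-galactosidase A, had 0.46 ± 0.18 at 9 months and 0.12 ± 0.18 at 3 months. Naglu, an enzyme of heparan sulfate breakdown, had 0.31 and 0.44, with no overlap with controls at either time. Hexa, a β-hexosaminidase subunit, had 0.28 and 0.19, and Sgsh, another heparan sulfate enzyme, 0.07 and 0.19. Gaa, the acid α-glucosidase, and Glb1, the β-galactosidase, were at -0.12 and -0.12 at 9 months. A second Gaa probe, well above background on only 5 arrays, gave 0.84 at 9 months and 2.10 at 3 months, neither called. Arsa, the sulfatase of sulfatide, was below controls at both times, by -0.23 ± 0.14 and -0.35 ± 0.14, and its 3-month lungs did not overlap the controls. Arsb, which removes sulfate from dermatan sulfate, had the widest swing of these 9, at the lowest signal of any member. Between the cre groups its change was -1.15 here and -0.72 in the deposited series matrix values. It was at -4.57, -4.09 and -3.74 in controls, -3.47, -2.97 and -3.35 in 3-month cre and -4.62, -4.81 and -3.80 in 9-month cre. Only the 3-month lungs stood apart, with 0.87 ± 0.30 against control (adjusted p = 0.188) and a second probe at 0.23.

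Of the 5 lipid-handling proteins, Npc2, Asah1 and Psap had their highest mean in 3-month cre, and Lipa and Ppt1 in 9-month cre. Npc2, which carries cholesterol to NPC1, was at 5.03, 4.75 and 5.62 in controls, 5.99, 5.98 and 5.87 in 3-month cre and 5.12, 5.08 and 4.93 in 9-month cre. The 3-month lungs lay above all others, and the 9-month lungs lay among the controls. The change at 3 months was 0.82 ± 0.20 (adjusted p = 0.112), and at 9 months it was -0.09 ± 0.20. Between the cre groups Npc2 was lower at 9 months by -0.91 ± 0.20 and was called (adjusted p = 0.0456). Asah1, acid ceramidase, had the same order, at 3.31, 3.43 and 3.45 in controls, 3.80, 3.92 and 3.78 in 3-month cre and 3.35, 3.38 and 3.38 in 9-month cre. Its 9-month level was lower than at 3 months by -0.46 ± 0.09 (adjusted p = 0.0388). In the fit over all 37647 probes a second Asah1 probe gave -1.05 (adjusted p = 0.0304) and the probe used an adjusted p of 0.0463. The annotated span of Asah1 overlaps Frg1.

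Psap, the precursor of the saposins that help hydrolases reach glycolipids, was decided by 1 lung. It was at 3.39, 3.66 and 3.83 in controls, 4.46, 4.51 and 4.37 in 3-month cre and 4.51, 2.80 and 4.97 in 9-month cre. Replicate 2 of 9-month cre was the lowest of all 9 lungs and replicate 3 of that group the highest, with an SD of 1.14 in the group. The 9-month change was 0.47 ± 0.47 with all lungs, and 1.11 (adjusted p = 0.0168) without replicate 2. At 3 months it was 0.82 ± 0.47, not called in the fit over all groups, and called (adjusted p = 0.0425) where only the 3-month cre and control lungs were fitted. Lipa, the acid lipase of cholesteryl esters, and Ppt1, a thioesterase, had changes of 0.48 and 0.31 at 9 months with overlap. Grn, progranulin, a secreted protein that also acts inside lysosomes, was at 5.01, 5.02 and 5.09 in controls, 5.43, 5.58 and 5.56 in 3-month cre and 5.36, 5.30 and 5.97 in 9-month cre. Every cre lung lay above every control, with changes of 0.48 ± 0.17 and 0.50 ± 0.17 that were not called (adjusted p = 0.201 and 0.111), and another Grn probe gave -0.12 at 9 months.

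The 7 proton pump subunits among the members had higher means at 3 months and lay around the control means at 9 months. All 7 had a positive change at 3 months, with a median of 0.35, and 0 were called in limma (4 at an unadjusted p under 0.05). At 9 months 3 of 7 were positive and the median was -0.02. The 15 other measured pump subunits did not follow this order. Their medians were 0.22 at 3 months and 0.20 at 9 months, with 10 and 9 positive. Atp6v0d1, a subunit of the membrane sector, was at 2.51, 2.56 and 3.26 in controls, 3.32, 3.58 and 3.37 in 3-month cre and 2.58, 2.78 and 2.81 in 9-month cre. Its 3-month change was 0.65 ± 0.20 (adjusted p = 0.158). Control replicate 3 sat near the 3-month lungs for this subunit, and without it the change was 0.89 (adjusted p = 0.0431). Atp6v0c, of the proton-carrying ring, and Atp6v1a, of the catalytic head, had 3-month changes of 0.56 and 0.35, and 9-month changes of 0.16 and -0.12. Atp6v1b2 and Atp6v1h kept similar changes at both times, with 0.34 and 0.31 for the former and 0.21 and 0.22 for the latter. Second probes of these 2 subunits gave -0.39 for Atp6v1b2 at 3 months and -0.32 for Atp6v1h at 9 months. Atp6v0a1 changed by 0.02 and -0.02.

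Between the 2 cre groups 3 members fell and 0 rose in limma, or 7.32% of members lower against 3.2% of all genes called lower and 1.79% called higher. At an unadjusted p under 0.05, 8 members were lower and 3 higher, against 2697 lower and 2142 higher of all 16843 genes. Besides Npc2 and Asah1, the third was Atp6ap1, an accessory subunit of the pump. It was at 1.13, 1.17 and 1.59 in controls, 1.58, 1.81 and 1.77 in 3-month cre and 0.81, 0.96 and 1.24 in 9-month cre. The cre groups did not overlap, and the controls overlapped each of them. The difference was -0.72 ± 0.17 (adjusted p = 0.0493). In the fit over all 37647 probes a second Atp6ap1 probe gave -1.04 (adjusted p = 0.0422) and the probe used an adjusted p of 0.0480. A second Atp6v0c probe also passed there, with -1.16 (adjusted p = 0.04999), while the probe used for it gave -0.40. Just outside the threshold lay Scarb2 with -0.69 (adjusted p = 0.0531) and Arsb with -1.15 (adjusted p = 0.0614). The median of the pump subunits among the members was -0.40, with 6 of 7 negative. For the 15 other measured subunits it was -0.10, with 8 negative. The median of all members was -0.05 against -0.03 over all genes.

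**Figure D3:**
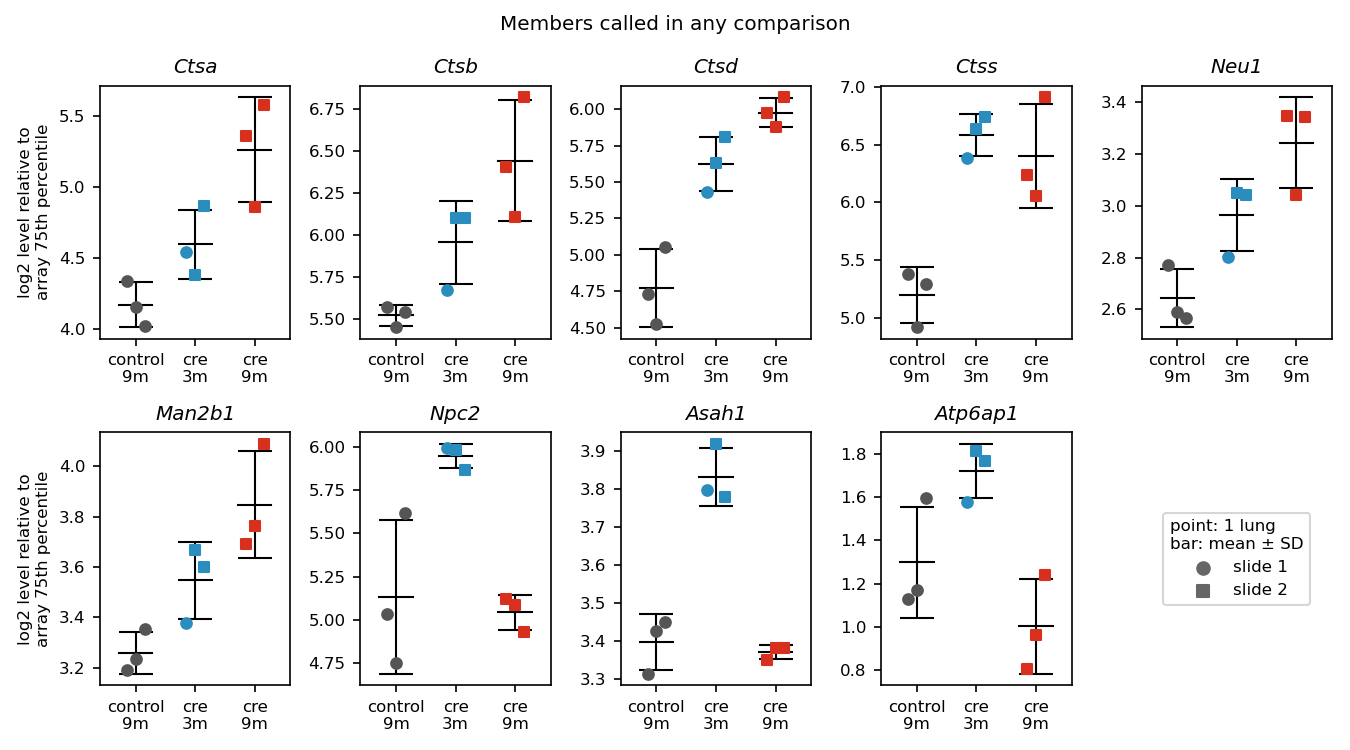
Log2 level relative to the 75th percentile of each array (vertical axes, which do not start at 0) of the 9 members called in any comparison, by group, with 1 point per lung, circles for slide 1, squares for slide 2 and bars for mean and SD. Ctsa, Ctsb, Ctsd, Ctss, Neu1 and Man2b1 are higher in 9-month cre than in controls, and Npc2, Asah1 and Atp6ap1 are lower in 9-month cre than in 3-month cre.

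Membrane proteins of the lysosome showed no common direction. Cd63, a tetraspanin of late endosomes, was at 5.40, 5.26 and 5.39 in controls, 5.69, 5.76 and 5.77 in 3-month cre and 5.98, 5.56 and 5.99 in 9-month cre. All cre lungs were above the controls, and the changes of 0.39 ± 0.13 and 0.50 ± 0.13 were not called (adjusted p = 0.183 and 0.0612). Scarb2, the receptor that brings glucocerebrosidase to lysosomes, was at 1.75, 1.82 and 2.26 in controls and 1.31, 1.46 and 1.69 in 9-month cre, a change of -0.45 ± 0.17 without overlap (adjusted p = 0.126). Npc1, the cholesterol transporter, was lower than controls in every cre lung, by -0.27 ± 0.11 at 3 months and -0.33 ± 0.11 at 9 months, and was not called (adjusted p = 0.232 and 0.103). Lamp1, an abundant membrane glycoprotein, had 0.32 ± 0.10 at 3 months and 0.13 ± 0.10 at 9 months, and Lamp2, its relative with a role in autophagy, 0.05 and -0.18. A second Lamp2 probe gave 0.44 and -0.43. Mcoln1, a calcium channel, had -0.22 and -0.02.

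Neither transcription factor was called. Tfe3 was at 3.29, 3.24 and 3.22 in controls, 3.25, 3.32 and 3.24 in 3-month cre and 3.68, 3.37 and 3.73 in 9-month cre. The 9-month lungs lay above all others, with 0.34 ± 0.11 against control, which was not called (adjusted p = 0.105). Without replicate 2 of 9-month cre Tfe3 was called against 3-month cre, at 0.43 (adjusted p = 0.0465), and against control, at 0.45 (adjusted p = 0.0344). Tfeb had 0.07 ± 0.15 at 9 months and 0.21 ± 0.15 at 3 months, and its 4 probes did not share a sign. Over all members, 20 other probes of 15 members passed the filter, and 8 of the 20 had the opposite sign of the probe used at 9 months and 3 at 3 months. In the fit over all 37647 probes the probes used for Neu1 and Man2b1 were not called at 9 months (adjusted p = 0.0562 and 0.0646), those of the 4 proteases were, and Ctss was also called at 3 months (adjusted p = 0.0491).

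Counted by overlap of single lungs, 13 members lay wholly above and 2 wholly below the controls at 9 months. These are 31.7% and 4.88% of members, against 17.5% and 15% of all genes. At 3 months 25 members lay wholly above the controls, or 61% against 19.6% of all genes, and 2 wholly below, or 4.88% against 11.4%. Between the cre groups 10 members were wholly lower at 9 months, or 24.4% against 19%, and 4 wholly higher, or 9.76% against 14.6%.

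Other genes of the lysosome and autophagy, 120 measured of 122 in 6 lists, are given beside the members. Against control 7 rose and 2 fell at 9 months, or 5.83% and 1.67% against 3.65% and 2.81% of all genes. At 3 months 2 rose and 0 fell, or 1.67% higher against 0.368% of all genes. The changes at 9 and 3 months came with medians of 0.06 and 0.15 against 0.02 and 0.05 over all genes. The enzymes held 3 of the rises at 9 months: Ctsk, a collagen-degrading cathepsin, with 1.87 ± 0.28, Acp5, an acid phosphatase of osteoclasts and macrophages, with 1.31 ± 0.21, and Lgmn, an asparagine-specific protease, with 0.78 ± 0.18. Of the membrane proteins Cd68, a macrophage glycoprotein, rose by 1.33 ± 0.24, and Mfsd8, a transporter, fell by 0.65. In the pump, Tcirg1, the a3 subunit, rose by 1.17 ± 0.23 and Atp6v0d2, a subunit of macrophages and osteoclasts, by 1.15 ± 0.22. Gga2, an adaptor for the transport of hydrolases, fell by 0.86, and Mitf, a relative of Tfeb, rose by 0.53 ± 0.11. Of 20 autophagy genes 0 were called at either time against control in limma, with 1 higher and 2 lower at 9 months and 4 higher and 1 lower at 3 months at an unadjusted p under 0.05. At 3 months the 2 rises were Ctsk, with 2.51 ± 0.28, and Atp6v0d2, with 1.66 ± 0.22.

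From 3 to 9 months, 5 of these other genes fell and 3 rose, or 4.17% and 2.5% against 3.2% and 1.79% of all genes. The falls were Gga2 by 1.19, Aga, which cleaves sugars from asparagine, by 1.07, Laptm4a by 0.85, Mfsd8 by 0.71 and Cd164 by 0.55. The rises were Tcirg1 with 1.01, the autophagy gene Atg9a with 0.90 and Cln3, a lysosomal membrane protein, with 0.57. Among pump subunits Tcirg1 thus rose over the interval in which the member Atp6ap1 fell.

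Some macrophage markers were also called against control, where 3.65% of all genes were called higher at 9 months and 0.368% at 3 months. Of 11 markers of lipid-associated macrophages 4 rose at 9 months (Gpnmb, Trem2, Spp1 and Lgals3) and 3 at 3 months (Gpnmb, Trem2 and Lgals3). Their summed level, the log2 of the sum over the 10 with a value on every array, was 7.25 to 7.35 in controls, 7.81 to 7.94 in 3-month cre and 7.75 to 8.25 in 9-month cre. Of 13 markers of monocytes and interstitial macrophages 3 rose at 9 months, Cd14 and Ms4a7 among them, and 0 at 3 months, with summed levels of 7.43 to 7.53, 7.41 to 7.64 and 8.02 to 8.06. Of 12 markers of resident alveolar macrophages 1 rose at 9 months (Mrc1) and 2 at 3 months (Mrc1 and Olr1), with summed levels of 6.86 to 7.67, 8.09 to 8.32 and 7.75 to 8.34. At 9 months 8 of the 12 had a positive and 4 a negative change, and at 3 months 11 and 1. By lung their median difference from the control mean was 0.81, -0.01 and 0.52 in replicates 1 to 3 of 9-month cre. A summed level weighs the brightest probes most. All genes of these 3 lists were well above background on all 9 arrays, controls included. Their part in the changes of the lysosome genes was not tested.

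Markers of other cell types were called as well, where 3.65% of all genes were called higher and 2.81% lower at 9 months against control. At an unadjusted p under 0.05, 2492 of all 16843 genes were higher and 2111 lower at 9 months, and 1195 were lower at 3 months. Of 12 measured neutrophil markers 3 rose at 9 months (Ngp, Camp and Mpo), with summed levels of 6.73 to 7.69 in controls and 6.94 to 8.62 in 9-month cre. In the fibroblast list 4 of 8 fell (Npnt, Fgf10, Meox2 and Col13a1), with summed levels of 6.13 to 6.42 and 5.73 to 6.13. Between the cre groups, where 3.2% of all genes were called lower, 4 of 8 fibroblast markers fell, with a median of -0.80. Of 12 resident alveolar macrophage markers 1 fell there, with a median of -0.34 and 11 negative. Of 12 alveolar type 2 markers 3 fell there, Slc34a2 by 1.99, Etv5 by 0.91 and Muc1 by 0.79, and 3 were positive. The median of that list between the cre groups was -0.52. Its summed level, which weighs the brightest probes most, was 9.40 to 9.64 in controls, 9.56 to 9.996 in 3-month cre and 9.64 to 10.02 in 9-month cre. Against control 1 of the 12 fell at 9 months (Etv5), with 8 negative changes and a median of -0.35. At 3 months all 12 had a positive change, with a median of 0.32. Of 9 heart muscle markers 1 fell at 9 months (Myh7) and 0 were called at 3 months, with median changes of -0.84 and -1.51 and 6 lower at 3 months at an unadjusted p under 0.05. In limma 0 of 4 B cell markers were called at 9 months, all 4 were lower at an unadjusted p under 0.05, and their median was -0.83. Of 7 measured alveolar type 1 markers 0 were called and 4 were lower at an unadjusted p under 0.05, with a median of -0.39. All 8 genes of the immediate early list, quickly induced by tissue handling, had a positive change at 9 months, with a median of 1.02, 0 called and 3 higher at an unadjusted p under 0.05. By lung their median difference from the control mean was 0.78, 0.22 and 1.85 in replicates 1 to 3 of 9-month cre, where the protease medians were 0.87, 0.58 and 1.20. In replicates 1 to 3 of 3-month cre it was -0.45, 0.80 and 0.07, where the protease medians were 0.37, 0.58 and 0.60. The summed level of the immediate early list was 6.52 to 6.90 in controls, 6.45 to 7.14 in 3-month cre and 6.93 to 8.01 in 9-month cre. The part of these genes in the results was not tested.

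**Figure D4:**
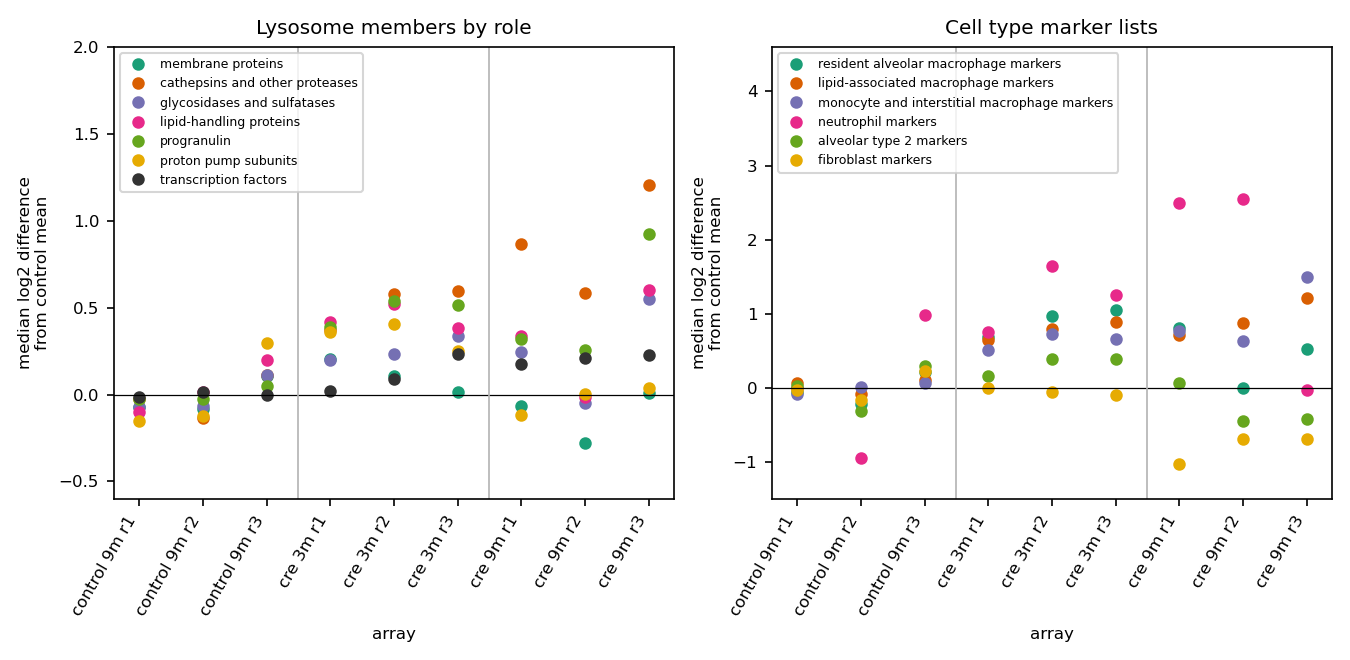
Median log2 difference from the control mean on each array (horizontal axis), for the members by role (left) and for 6 cell type marker lists (right), where each point is the median over the genes of a role or list in 1 lung. Protease medians reach 0.87, 0.58 and 1.20 in the 9-month cre lungs, and the proton pump medians are 0.25 to 0.40 in 3-month cre and -0.11 to 0.04 in 9-month cre.

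Controls and 9-month cre share no slide. With slide as a fixed term, which links them only through the 3-month lungs, 0 members and 0 of all genes were called in limma. At an unadjusted p under 0.05, 2 members and 426 of all 16843 genes were higher. The changes were then 0.92 for Ctsd, 0.91 for Ctss, 1.01 for Ctsa, 0.49 for Ctsb, 0.36 for Neu1 and 0.33 for Man2b1. With slide as a random block 11 members rose and 2 fell, and the calls over all genes grew to 11.4% higher and 9.61% lower. The correlation of arrays on 1 slide was estimated there as -0.096, below 0. With sex as a covariate 0 members and 0 of all genes were called, and Ctsd kept 1.21 (adjusted p = 0.0604). At an unadjusted p under 0.05, 10 members and 2162 of all 16843 genes were higher in that fit. The count of 6 became 1 without any 1 of the control replicates or without replicate 1 of 9-month cre, the call left being Ctsd in each case. It became 2 without replicate 2 and 3 without replicate 3 of 3-month cre, and 10 without replicate 2 of 9-month cre. Calls over all genes moved too, from 614 higher to 193, 91 and 200 without control replicates 1 to 3. They numbered 148 without replicate 1 and 980 without replicate 2 of 9-month cre. Without replicates 2 and 3 of 3-month cre they numbered 269 and 393.

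At 3 months, the control lungs and replicate 1 of 3-month cre on slide 1 alone gave a median of 0.28 over the members and 0.36 over the pump. That comparison has 1 cre lung, so only the sizes of the changes are given. Leaving out control replicate 3 gave 3 calls (Ctsd, Npc2 and Atp6v0d1). Leaving out replicate 3 of 9-month cre gave 3 (Ctss, Ctsd and Grn) and leaving out replicate 2 of 9-month cre gave 1 (Ctss). Of all genes 86, 240 and 86 were called higher in these fits, against 62 with all lungs. Between the cre groups the lungs on slide 2 alone gave -0.88 for Npc2, -0.48 for Asah1, -0.79 for Atp6ap1 and -0.42 for the pump median. No member was called on slide 2 alone, a count of 0 with 8 lower at an unadjusted p under 0.05. Of all 16843 genes 1703 were lower there at that threshold. The 3 falls became 6 without control replicate 3 and 1 without replicate 2 of 9-month cre. They became 0 without control replicate 1 or 2, any replicate of 3-month cre or replicate 1 of 9-month cre. Of all genes 539 were called lower with all lungs, 779 without control replicate 3 and 560 without replicate 2 of 9-month cre. In the fits with 0 falls, 0 to 246 of all genes were called lower.

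**Figure D5:**
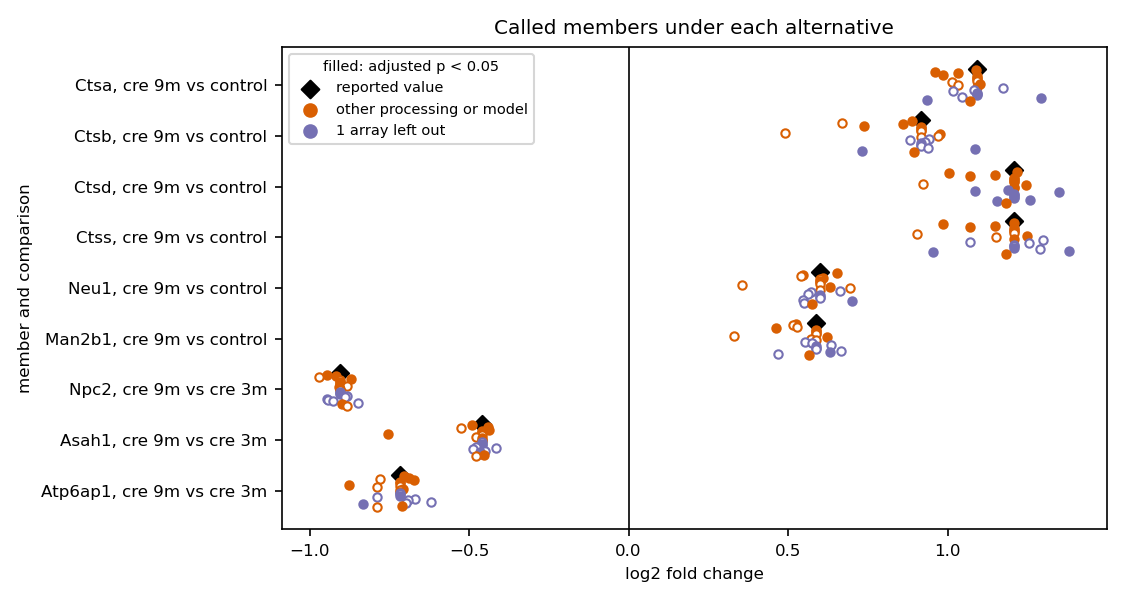
Log2 fold change (horizontal axis) of the 9 called members in the comparison that called them (vertical axis), as reported (black diamonds), under other processing or models (orange) and with 1 array left out (purple), where filled points passed an adjusted p under 0.05. No value crosses 0, and Ctsd is filled in 20 of 22 alternatives.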

How the data were processed

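RNA of 9 whole lungs was labelled with Cy3 and read on 9 one-colour Agilent arrays of 62976 spots. The deposited scanner files hold spot intensity from Agilent Feature Extraction 10.7.3.1, background-subtracted within each array and not scaled between arrays, per the file headers. The deposited series matrix, an alternative here, holds 1 intensity per probe, brought by the authors to nearly equal distributions by a step not given in the sources used here. Intensities were averaged per probe without outlier spots, divided by the 75th percentile over the non-control probes of the array and taken as log2. A probe was kept where all arrays of some group had it well above background (37647 probes). Probes were named through RefSeq transcripts, and the brightest probe of a gene was used (16843 genes). The 3 groups entered 1 fit in limma 3.58.1 (R 4.3.3, with version 1.17.8 of data.table and jsonlite 2.0.0) with group means, 6 residual degrees of freedom, two-sided moderated tests and Benjamini-Hochberg adjustment per contrast. The number of arrays limits the precision.

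The members and the gene lists were chosen with earlier results of these data known. All members are accounted for, members called in any contrast are given by array, as is the member of each role with the largest change, and up to 4 called genes per list are named. A gene that this rule takes in is not reported here. Promoter windows were searched in Python 3.11.15 with pandas 2.3.3, and figures drawn in matplotlib 3.10.9. The fit was tested on simulated data. Alternatives changed the background correction (normexp, offset 50), the scaling, the filter, the probe choice and the model, or left out 1 array. Scaling over spots and the fits within a slide were chosen after seeing the data. Annotated spans of 10 members overlap another protein-coding gene, and probe positions were not used here.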

Additional observations from a re-analysis of the deposited data

Results flagged for a closer look

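For 3 members the 9-month and 3-month cre lungs differed from each other in the contrast between these groups. Asah1 differed by -0.4604 (log2, 9-month cre minus 3-month cre, adjusted p = 0.0388 in limma), Atp6ap1 by -0.7158 (adjusted p = 0.0493) and Npc2 by -0.9052 (adjusted p = 0.0456). In each, the 3 lungs of 9-month cre lay below the 3 lungs of 3-month cre. Both groups carry cre, and they differ in age, 11 against 5 months, as well as in length of treatment. No control of 5 months was included, so age and length of treatment cannot be told apart. Of 23 alternatives, Asah1 was called in 10, Atp6ap1 in 9 and Npc2 in 9. All 3 calls were lost with slide fixed, sex as a covariate, a replicate block, median scaling, no filter on dim probes or the slide 2 arrays alone, and with 1 array left out at a time they held in 3, 2 and 1 of 9 fits.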

How the results depend on the processing

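The median changes over the members moved by less than 0.18 in every alternative run. That value is the SD of the median member level between arrays of a group. It is not the spread of the median change. Leaving out 1 array at a time gave medians of 0.09 to 0.30 (9-month cre against control), 0.28 to 0.38 (3-month cre against control) and -0.14 to -0.01 (9-month against 3-month cre). Calls moved more. Members called higher at 9 months against control numbered 6, and 3 without the filter on dim probes, 1 with only the 2 groups, 0 with slide fixed or with sex, 11 with slide random (2 lower) and 1 to 10 with an array left out. At 3 months against control they numbered 0, then 1 with scaling to the array median, 2 with only the 2 groups, 2 with slide random and 0 to 3 with an array left out. Between the cre groups 3 were lower, then 5 in the deposited matrix values, 1 with only the 2 groups, 0 with median scaling, no filter, slide fixed, sex or slide 2 alone, and 0 to 6 lower and 0 to 2 higher with an array left out. The share of all genes called moved too. Higher at 9 months it was 3.65%, then 1.22% without the filter and 0.754% with only the 2 groups. It was 0.54% to 5.82% with an array left out. Higher at 3 months it was 0.368%, then 0.356% with median scaling, 1.78% with only the 2 groups and 0.724% with slide random. Lower between the cre groups it was 3.2%, then 3.87% in the deposited matrix and 1.32% with only the 2 groups. No called member changed sign. The cause of these differences was not tested.

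Arrays with the same replicate number did not deviate together (r of -0.236 to 0.045 over 9 pairs), so the numbers pair nothing. A replicate block gave 3 members higher at 9 months against control, and 0 lower between the cre groups. Of all genes 1.19% were called higher and 0.0237% lower in these comparisons.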
